A study of Mus musculus with 4 samples.

Results

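Nuclear genes for subunits of the mitochondrial respiratory chain and of ATP synthase were compared between 2 mouse cell lines, both progenitors of interstitial cells of Cajal, which pace the contractions of the gut. The genes were chosen by symbol alone: rows that begin with Nduf and a letter a, b, c, s or v, the 4 Sdh genes, Uqcr genes, Cyc1, Cox genes of the families 4 to 8 with a letter, and Atp5 genes. This rule took 82 of the 23358 gene rows, of which 36 belong to complex I, 4 to complex II, 9 to complex III, 16 to complex IV and 17 to complex V by their symbols. Of these, 78 held enough counts to be tested, and Cox6b2, Cox7b2, Cox8b and Cox8c did not. Atp5s and Atp5sl match the rule but are not core subunits of ATP synthase, and Cox4i1, Cox4i2, Ndufab1 and Ndufa4l2 are subunits or isoforms whose symbols the rule leaves out. Subunits encoded in mitochondrial DNA were not analysed here.

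The line 2xSCS70 was derived from the muscle coat of the stomach (tunica muscularis) of H-2Kb-tsA58 mice, in which an interferon-inducible promoter drives a temperature-sensitive SV40 large T antigen, and it was kept at 39.5 °C with no interferon-gamma. The line 2xSCS2F10 was derived from the same layer of C57BL/6J mice and kept at 37 °C with 5% cell-free chick embryo extract added to the same neural stem cell medium. Each line gave 2 libraries of polyadenylated RNA, and each mouse strain is represented by 1 cell line. Strain, transgene, temperature and medium supplement therefore cannot be told apart. No label says that separate cultures were used for the libraries of a line, so p-values reflect the spread among these libraries alone, and that spread may be technical. In bulk RNA, fewer cells of a type and less RNA per cell cannot be told apart either.

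The respiratory chain moves electrons from NADH (through complex I) and from succinate (through complex II) by way of ubiquinone to complex III, cytochrome c and complex IV, where oxygen is reduced. Complexes I, III and IV pump protons across the inner mitochondrial membrane, and ATP synthase, also called complex V, uses the proton gradient to make ATP. Most subunits are encoded in the nucleus, many of them from promoters bound by the factors NRF1, GABP, YY1 and ERRα, and complex IV has subunits with isoforms restricted to heart and skeletal muscle, brown fat, lung or testis.

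The libraries held 24485632 and 22368504 sequenced fragments in genes for 2xSCS70 and 20159986 and 22549451 for 2xSCS2F10, in the order of replicates 1 and 2 used throughout. The 82 genes took 0.698% and 0.66% of the counts of 2xSCS70 and 0.621% and 0.485% of those of 2xSCS2F10. Ribosomal RNA reads, counted as Rn45s, took 2.22% and 5.92% of the counts of 2xSCS70 and 3.74% and 8.27% of those of 2xSCS2F10, with replicate 2 higher in both lines. Kit, by which mature interstitial cells of Cajal are recognised, had 0 fragments in 3 libraries and 1 in 2xSCS70 replicate 2. Of 4 tested markers of those mature cells, Ano1, Itpr1 and Gja1 were lower in 2xSCS70 and Etv1 did not pass. Ano1, their calcium-activated chloride channel, had 0.496 and 0.553 scaled RPKM in 2xSCS70 and 6.47 and 3.99 in 2xSCS2F10 (log2 -3.32, SE 0.30, adjusted p = 0.00219). Of 5 progenitor markers, Cd34 (log2 1.94) and Cd44 (log2 1.13) were higher, Igf1r (log2 -0.57) was lower, and Insr and Pdgfra did not pass. Without 2xSCS70 replicate 1 or without replicate 2, 0 of the 5 progenitor markers were called, and 0 and 1 of the markers of mature cells, in that order. Of the other markers, 6 of 7 tested smooth muscle genes (3 of 7 without 2xSCS70 replicate 1 or without replicate 2) and 5 of 5 mesothelial genes were lower in 2xSCS70. The summed smooth muscle level was 442 and 412 scaled RPKM in 2xSCS70 and 2987 and 5287 in 2xSCS2F10, and the summed mesothelial level was 46.3 and 41.5 in 2xSCS70 and 1508 and 1708 in 2xSCS2F10. Scaled RPKM is the count for each kilobase of coding length, relative to the total count of the library after scaling by the trimmed mean of M values (TMM), and every level below is in that unit. The part of these marker differences in the results below was not tested.

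Promoters of the respiratory chain genes held known binding motifs in a larger share than promoters at large. RefSeq promoter windows (GRCm38.p6, 250 bases before to 50 bases after the annotated start) were matched by symbol or synonym for 69 of the 82 genes and read on both strands for 4 fixed words. Where a gene had several windows, the one nearest the deposited row was taken for these 69. The 27025 windows at large were the first listed for each gene, so the choice of window was not alike. The NRF1 word (GCGCA, any base, then GCGC) stood in 16 of the 69 windows (23.2%) against 4.78% of all 27025 windows, the GABP word CCGGAAG in 15 (21.7%) against 9.12%, the YY1 word AAGATGGCG in 7 (10.1%) against 1.49% and the ERRα word TCAAGGTCA in 2 (2.9%) against 0.407%. At least 1 of the 4 words stood in 33 windows (47.8%) against 14.4% of all windows. Of the genes described below, a word was present in 3 of 11 that were higher in 2xSCS70, 3 of 8 that were lower and 27 of 47 matched genes that did not pass the test. A match is a description of the letters and no evidence of binding, and no difference between these shares was tested.

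The 6 windows below are those of the genes that passed the test and hold a word, shown because they let the higher and the lower genes be read side by side; capitals mark the words, and each window is written 5′ to 3′ on the strand of the gene. For Uqcrc1 (chr9:108936398-108936697, plus strand), Ndufb7 (chr8:83566508-83566807, plus strand) and Atp5j2 (chr5:145191492-145191791, minus strand), all higher in 2xSCS70, the capitals are NRF1, GABP and YY1 words. For Ndufs8 (chr19:3912725-3913024, minus strand), Ndufs3 (chr2:90904672-90904971, minus strand) and Atp5e (chr2:174464052-174464351, minus strand), all lower in 2xSCS70, they are GABP words.
Uqcrc1: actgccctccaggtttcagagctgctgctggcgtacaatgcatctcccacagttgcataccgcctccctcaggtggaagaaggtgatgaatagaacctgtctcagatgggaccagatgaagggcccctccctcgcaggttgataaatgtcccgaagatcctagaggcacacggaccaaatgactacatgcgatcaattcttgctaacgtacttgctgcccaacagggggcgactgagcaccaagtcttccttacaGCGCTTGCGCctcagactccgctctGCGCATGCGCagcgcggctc
Ndufb7: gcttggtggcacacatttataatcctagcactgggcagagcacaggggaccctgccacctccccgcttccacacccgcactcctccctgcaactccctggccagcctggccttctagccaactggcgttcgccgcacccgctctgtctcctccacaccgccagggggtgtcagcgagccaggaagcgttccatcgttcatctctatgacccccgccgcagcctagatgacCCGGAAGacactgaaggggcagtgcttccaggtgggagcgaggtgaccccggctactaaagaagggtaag
Atp5j2: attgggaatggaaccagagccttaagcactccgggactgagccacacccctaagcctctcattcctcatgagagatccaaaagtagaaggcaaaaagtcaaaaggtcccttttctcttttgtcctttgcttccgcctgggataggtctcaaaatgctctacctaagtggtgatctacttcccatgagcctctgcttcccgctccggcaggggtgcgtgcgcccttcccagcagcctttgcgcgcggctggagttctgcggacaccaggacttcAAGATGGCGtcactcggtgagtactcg
Ndufs8: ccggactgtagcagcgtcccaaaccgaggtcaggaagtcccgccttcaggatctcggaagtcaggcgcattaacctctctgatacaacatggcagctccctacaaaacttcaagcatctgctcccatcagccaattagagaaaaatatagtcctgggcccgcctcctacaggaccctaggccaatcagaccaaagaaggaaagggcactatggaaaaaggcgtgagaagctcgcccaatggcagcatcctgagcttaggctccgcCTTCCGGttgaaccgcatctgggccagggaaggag
Ndufs3: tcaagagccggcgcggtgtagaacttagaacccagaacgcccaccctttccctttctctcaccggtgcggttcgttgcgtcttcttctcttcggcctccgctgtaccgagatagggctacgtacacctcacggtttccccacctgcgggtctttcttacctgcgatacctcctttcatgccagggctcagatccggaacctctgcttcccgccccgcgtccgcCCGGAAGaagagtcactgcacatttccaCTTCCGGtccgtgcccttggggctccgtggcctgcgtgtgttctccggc
Atp5e: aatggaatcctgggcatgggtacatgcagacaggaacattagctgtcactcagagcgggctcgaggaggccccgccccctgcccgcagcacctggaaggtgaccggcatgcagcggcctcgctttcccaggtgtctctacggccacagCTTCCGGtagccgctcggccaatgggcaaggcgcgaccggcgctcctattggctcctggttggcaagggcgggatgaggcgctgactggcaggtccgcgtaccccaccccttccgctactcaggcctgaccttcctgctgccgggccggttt
The Uqcrc1 window holds the NRF1 word at 2 places, both just after the start, and Ndufs3 holds the GABP word at 2 places around it. The annotated start differed from the end of the deposited gene row by 57 bases for Ndufs8 and by 51 bases for Atp5j2. Some windows counted above but not shown differed by more, such as 985 bases for Atp5f1. For Ndufa13, a lower gene whose window held no word, it was 538 bases.

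Most respiratory chain genes had similar levels in both lines, and a minority differed in each direction. Of the 78 tested, 11 were higher in 2xSCS70 (14.1%), 8 were lower (10.3%) and 59 did not pass the test, at an edgeR quasi-likelihood p adjusted over all tested genes under 0.05. Over all 14496 tested genes, 40.6% passed, 18.8% as higher and 21.8% as lower, so in the test on all 4 libraries the share among respiratory chain genes was below the background in each direction. The median log2 fold change (2xSCS70 over 2xSCS2F10) was 0.02 for them and 0.02 for all tested genes. Their median size of change was 0.25 on the log2 scale against 0.58 for all tested genes, and 65 of 78 (83.3%) lay within 0.5 of zero against 45.0%. A change of 2-fold or more was seen for 2 of them (2.56%), Uqcrc1 and Ndufs5, against 30.8% of all tested genes. The Ndufs5 row held 3 to 10 fragments per library and is not read as the level of its gene. No comparison with all tested genes was matched for expression level. The values of the lines did not overlap for 49 of 78 (62.8%) against 77.4%. The summed level was 6863 ± 51.6 in 2xSCS70 and 6773 ± 491 in 2xSCS2F10 (SD, n = 2 libraries each), a difference smaller than the spread within 2xSCS2F10.

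**Figure D1:**
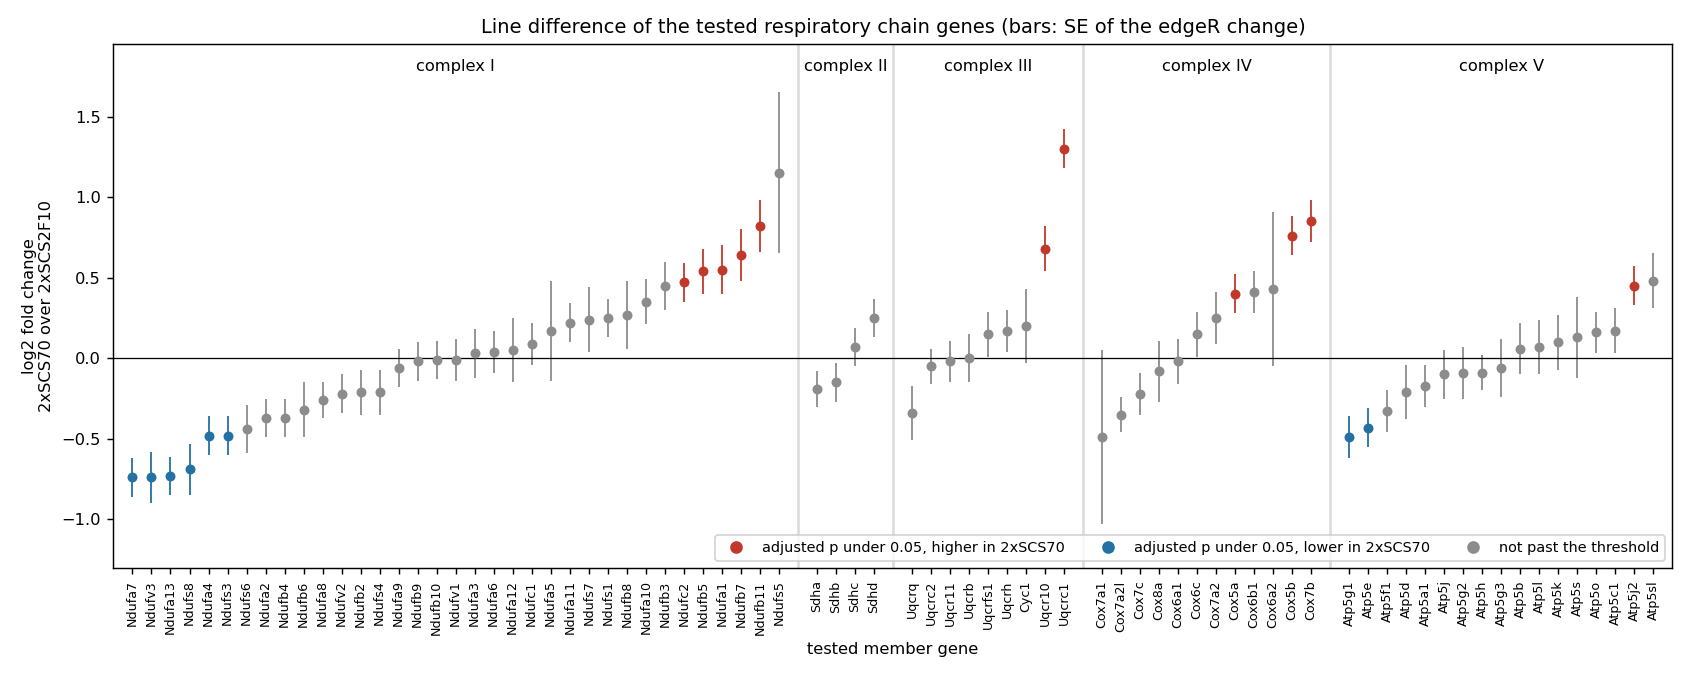
Log2 fold change (2xSCS70 over 2xSCS2F10, vertical axis) of 77 of the 78 tested genes by complex, with bars for the SE of the edgeR change. Points above 0 are higher in 2xSCS70; the colored points are the 11 higher and 8 lower genes, and Uqcrc1 stands highest among them at 1.30.

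The calls depended on which libraries were used. With either 2xSCS70 library left out, 0 of the 78 genes passed, with 8 (without replicate 1) and 7 (without replicate 2) at an unadjusted p under 0.05. Of all tested genes 1.66% were then higher and 3.46% lower without replicate 1, and 1.81% and 3.53% without replicate 2. The spread then came from the 2xSCS2F10 pair alone. With 2xSCS2F10 replicate 1 left out 26 genes were higher (33.3%, against 32.0% of all tested genes) and 13 lower (16.7%, against 32.4%). With its replicate 2 left out 14 were higher (17.9%, against 29.5%) and 25 lower (32.1%, against 31.0%). The share was thus near the background for the higher genes in the first case and for the lower genes in the second, and below it in the other direction. Counts given below for a fit without a library are to be set against the shares of all tested genes given here for that fit. Within 2xSCS2F10, replicate 2 was below replicate 1 for 57 of the 78 genes, with a median difference of -0.11 on the log2 scale, against -0.01 within 2xSCS70. The split also moved with the scaling. Under upper quartile scaling, which moved the median of all genes to 0.11, 12 were higher and 4 lower, against 21.6% and 19.4% of all tested genes. On log2 values of the authors' RPKM plus 1, which moved that median to 0.15, 12 were higher and 0 lower, against 22.2% and 12.6% of all tested genes, with 20 at an unadjusted p under 0.05. None of the 19 genes changed its direction in any of the 16 alternative settings.

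Complex I, the NADH dehydrogenase, had genes that differed in both directions: 5 were higher in 2xSCS70, 6 were lower and 25 did not pass. The shares were 13.9% higher and 16.7% lower, against 18.8% and 21.8% of all tested genes. The median log2 fold change was -0.01, which turned to 0.08 under upper quartile scaling and 0.23 on log2 RPKM values. The summed level of its 36 genes was 2013 ± 9.54 scaled RPKM in 2xSCS70 and 2165 ± 133 in 2xSCS2F10 (SD, n = 2). Both the 36 genes and the 6 lower genes include Ndufa4, now assigned to complex IV. Ndufa4 alone had 217 ± 11.8 in 2xSCS70 and 301 ± 15.0 in 2xSCS2F10. The 5 higher genes, Ndufb11, Ndufb7, Ndufa1, Ndufb5 and Ndufc2, all encode accessory subunits of the arm in the membrane. Of these, Ndufb11 and Ndufa1 lie on chromosome X, of whose tested genes 50.0% were higher. Of the 6 lower genes, Ndufa7, Ndufv3, Ndufs8 and Ndufs3 encode subunits of the arm that reaches into the matrix, where NADH is oxidised. Grouped by arm after these values were seen, 0 of 16 matrix arm genes were higher and 4 lower (25.0%, against 21.8% of all tested genes), with a median log2 fold change of -0.21 (0.02 on log2 RPKM values). Of 19 membrane arm genes 5 were higher (26.3%, against 18.8%) and 1 lower, with a median of 0.22, and no test was made between the arms. Without 2xSCS2F10 replicate 1, 4 matrix arm genes were higher and 7 lower, and 8 membrane arm genes were higher and 2 lower. Without its replicate 2, 0 matrix arm genes were higher and 8 lower, and 6 membrane arm genes were higher and 5 lower. On log2 RPKM values 0 genes of either arm were lower. The summed level of the matrix arm genes was 762 ± 13.4 in 2xSCS70 and 898 ± 53.1 in 2xSCS2F10. That of the membrane arm genes was 1035 ± 7.93 in 2xSCS70 and 966 ± 64.5 in 2xSCS2F10, which is close to the spread within 2xSCS2F10.

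Ndufb11 (chromosome X, 20615326 to 20617564, mm10), an accessory subunit of the membrane arm, had 66.3 and 63.0 scaled RPKM in 2xSCS70 and 40.8 and 32.4 in 2xSCS2F10. Both 2xSCS70 libraries were above both 2xSCS2F10 libraries, a 1.77-fold difference (log2 0.82, SE 0.16, adjusted p = 0.0154). The row overlaps that of Rbm10 by 62 bases, and whether reads there could be told apart by strand was not tested. Its span also lies within those of rows such as Gm10921 (4289286 to 31383918), which held 0 fragments in every library. Ndufb7, a subunit on the side of the intermembrane space, had 81.8 and 75.1 in 2xSCS70 and 55.9 and 44.5 in 2xSCS2F10, with a wider gap between the 2xSCS2F10 libraries than between those of 2xSCS70 (log2 0.64, SE 0.16, adjusted p = 0.0318). Ndufa1, which is needed for complex I to assemble, had 39.1 and 36.1 in 2xSCS70 and 26.3 and 24.9 in 2xSCS2F10, again without overlap (log2 0.55, SE 0.15, adjusted p = 0.0365). Ndufb5 (28.9 and 27.9 in 2xSCS70 and 20.8 and 18.2 in 2xSCS2F10, adjusted p = 0.0338) and Ndufc2 (49.5 and 48.0 in 2xSCS70 and 35.6 and 34.9 in 2xSCS2F10, adjusted p = 0.0343) were 1.45-fold and 1.38-fold higher.

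Among the lower genes of complex I, Ndufa7 (chromosome 17, 33824614 to 33838313), a matrix arm accessory subunit, had 68.5 and 63.1 scaled RPKM in 2xSCS70 and 109 and 111 in 2xSCS2F10. The libraries of each line lay close together, and the difference was 1.67-fold (log2 -0.74, SE 0.12, adjusted p = 0.0104). Ndufv3, an accessory subunit of the NADH-oxidising module, had 15.4 and 14.6 in 2xSCS70 and 22.3 and 28.1 in 2xSCS2F10 (log2 -0.74, SE 0.16, adjusted p = 0.0214). Ndufs8 and Ndufs3 are core subunits, the first of which holds iron-sulfur clusters. Ndufs8 had 33.4 and 31.0 in 2xSCS70 and 58.3 and 45.8 in 2xSCS2F10 (log2 -0.69, SE 0.16, adjusted p = 0.027), and Ndufs3 had 36.8 and 40.2 in 2xSCS70 and 53.9 and 53.2 in 2xSCS2F10 (log2 -0.48, SE 0.12, adjusted p = 0.0343). In both, the highest 2xSCS70 library stayed below the lowest 2xSCS2F10 library. The lower gene of the membrane arm was Ndufa13, also known as Grim19, at 33.3 and 31.9 in 2xSCS70 and 53.5 and 54.9 in 2xSCS2F10 (log2 -0.73, SE 0.12, adjusted p = 0.00904). Its row overlaps that of Tssk6 by 344 bases, and the Tssk6 row held 1 and 2 fragments in 2xSCS70 and 13 and 15 in 2xSCS2F10, against 1146 and 969 for Ndufa13 in 2xSCS70 and 1302 and 1306 in 2xSCS2F10. Apart from Ndufs5, described below, the complex I genes that did not pass had log2 fold changes between -0.44 (Ndufs6) and 0.45 (Ndufb3), each with adjusted p above the threshold (0.0716 and 0.0713).

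Ndufa4 carries a complex I symbol, but its protein is now assigned to complex IV. It was the most abundant Nduf gene, with 208 and 225 scaled RPKM in 2xSCS70 and 312 and 291 in 2xSCS2F10. No library of one line reached the range of the other, and the level was 1.39-fold lower in 2xSCS70 (log2 -0.48, SE 0.12, adjusted p = 0.0293). The call passed in 9 of the 16 alternatives and ended under upper quartile scaling (adjusted p = 0.0577), with the replicate number as a block (0.0597) and on log2(RPKM + 1) (0.457), among others. If Ndufa4 is counted with complex IV, it is the only lower gene of that complex in the test on all 4 libraries.

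One complex I row could not be read as the level of its gene. Ndufs5, which encodes a subunit present in every assembled complex I, had 8 and 10 fragments in 2xSCS70 and 3 and 3 in 2xSCS2F10. Its level in 2xSCS70 replicate 1 was 0.57 scaled RPKM, against 13.7 to 208 for the other Nduf rows of that library. Its row (chromosome 4, 123712710 to 123718186) is covered over 99.5% of its span by a row named BC002163, which held 0 fragments in every library. The ratio of 2.23 (exact 95% interval 0.847 to 6.85, which covers counting error only) did not exclude equal levels, and the part of the overlapping row in the low count was not tested.

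Complex II, succinate dehydrogenase, had levels close together in both lines. In the edgeR test on all 4 libraries 0 of its 4 genes passed, against 40.6% of all tested genes. Of the 4 genes, 0 had an unadjusted p under 0.05, and 0 passed with DESeq2 and limma-voom. The values of the lines did not overlap for 3 of the 4 (75.0%), against 77.4% of all tested genes. Without 2xSCS2F10 replicate 1, Sdhd alone was called, as higher. Sdha, the flavoprotein, had 60.7 and 60.5 scaled RPKM in 2xSCS70 and 70.6 and 67.2 in 2xSCS2F10 (log2 -0.19, SE 0.11, adjusted p = 0.227). Sdhb, the iron-sulfur subunit, had 40.9 and 39.8 in 2xSCS70 and 46.2 and 43.3 in 2xSCS2F10 (adjusted p = 0.36). The membrane anchors Sdhc (log2 0.07) and Sdhd (log2 0.25) lay on the other side of zero and did not pass either (adjusted p = 0.659 and 0.144). The summed level was 231 ± 4.15 in 2xSCS70 and 230 ± 3.46 in 2xSCS2F10, and the median log2 fold change was -0.04 (0.05 under upper quartile scaling).

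Complex III, the cytochrome bc1 complex, held the gene with the largest difference among those that passed. Of its 9 genes 2 were higher in 2xSCS70 (22.2%, against 18.8% of all tested genes) and 0 were lower (against 21.8%). The median log2 fold change was 0.15, which turned to -0.03 without 2xSCS2F10 replicate 2. With that library left out 2 were higher and 1 lower, and with 2xSCS2F10 replicate 1 left out 4 were higher and 0 lower. Uqcrc1 (chromosome 9, 108936648 to 108949641), core protein 1 on the matrix side of the complex, had 78.0 and 70.9 scaled RPKM in 2xSCS70 and 31.5 and 29.1 in 2xSCS2F10. Both 2xSCS70 values were more than the sum of both 2xSCS2F10 values, and the difference was 2.46-fold (log2 1.30, SE 0.12, adjusted p = 0.0025). It was also the only respiratory chain gene past the test against a 1.5-fold change (adjusted p = 0.00652). Without a 2xSCS70 library the adjusted p was 0.0614 (replicate 1 left out) and 0.0514 (replicate 2 left out). Its partner Uqcrc2, core protein 2, had 41.0 and 42.3 in 2xSCS70 and 42.3 and 43.9 in 2xSCS2F10, with the lines in the same range (log2 -0.05, SE 0.11, adjusted p = 0.748).

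Uqcr10, a small subunit next to cytochrome c1, had 138 and 138 scaled RPKM in 2xSCS70 and 93.9 and 78.5 in 2xSCS2F10. The 2xSCS70 libraries were equal at this precision and both were higher (log2 0.68, SE 0.14, adjusted p = 0.0185). The catalytic subunits encoded in the nucleus did not pass. Cyc1, cytochrome c1, had 86.1 and 71.4 in 2xSCS70 and 82.5 and 54.5 in 2xSCS2F10, overlapping between lines (adjusted p = 0.519), and Uqcrfs1, the Rieske iron-sulfur protein, had 60.6 and 56.7 in 2xSCS70 and 56.9 and 48.5 in 2xSCS2F10 (adjusted p = 0.399). Uqcrb, with 112 and 125 in 2xSCS70 and 129 and 107 in 2xSCS2F10, showed no direction (log2 0.00, adjusted p = 0.995).

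**Figure D2:**
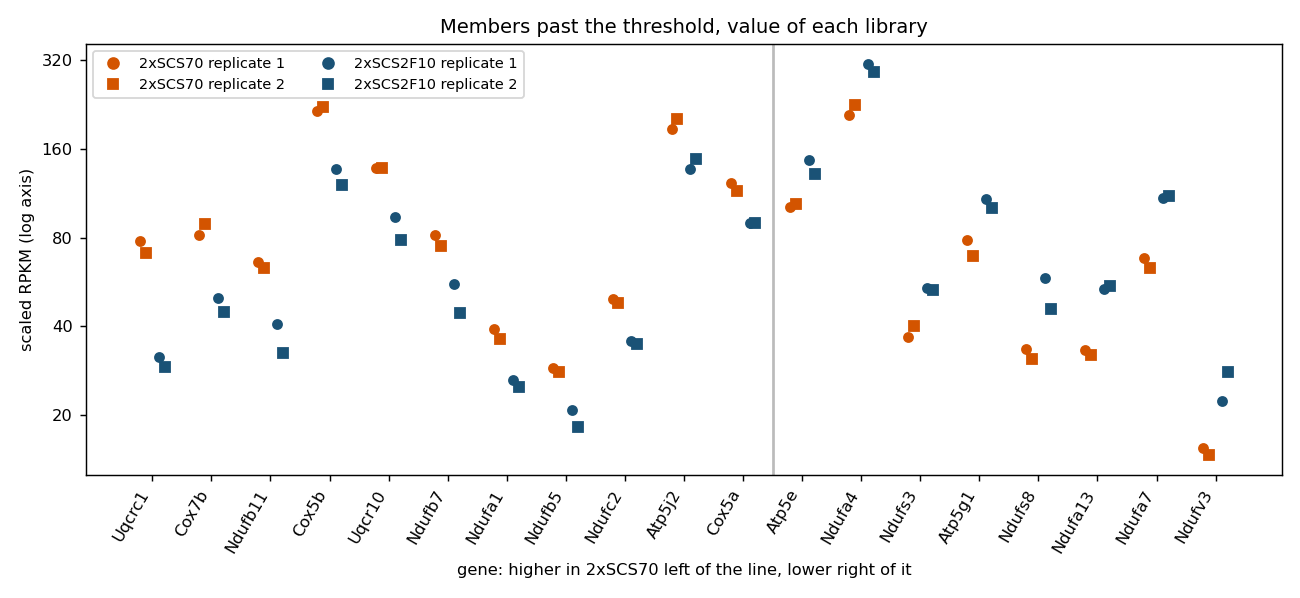
Level of each of the 19 genes past the threshold in each library (scaled RPKM, log axis), with the 2xSCS70 libraries left of the 2xSCS2F10 libraries for each gene. Left of the grey line the 2xSCS70 points lie above the 2xSCS2F10 points, and right of it below; Uqcrc1 has the widest gap, at 78.0 and 70.9 in 2xSCS70 and 31.5 and 29.1 in 2xSCS2F10.

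Complex IV, cytochrome c oxidase, had 3 genes higher in 2xSCS70 and 0 lower among 12 tested by symbol. These shares were 25.0% and 0.0%, against 18.8% and 21.8% of all tested genes. Its median log2 fold change of 0.20 stayed above zero in the 16 alternative settings. Without 2xSCS2F10 replicate 1, 5 were higher and 1 lower, and without its replicate 2, 4 were higher and 2 lower. With Ndufa4 and Cox4i1 counted in, a grouping added after the data were seen, 3 of 14 were higher and 1 lower, and the median was 0.06 (-0.01 on fragments in place of counts). The summed level of the genes taken by symbol was 1366 ± 28.0 scaled RPKM in 2xSCS70 and 1179 ± 61.7 in 2xSCS2F10. With Ndufa4 and Cox4i1 counted in, it was 1806 ± 28.7 in 2xSCS70 and 1725 ± 80.8 in 2xSCS2F10. That difference is close to the spread within 2xSCS2F10. Cox7b (chromosome X, 106015700 to 106022450), a small membrane subunit, had 81.9 and 88.9 in 2xSCS70 and 49.9 and 44.8 in 2xSCS2F10. That is 1.80-fold higher with no overlap (log2 0.85, SE 0.13, adjusted p = 0.00802). Of all tested genes of chromosome X, 50.0% were higher. Cox5b, the zinc-binding subunit on the matrix side, had 216 and 222 in 2xSCS70 and 137 and 121 in 2xSCS2F10 (log2 0.76, SE 0.12, adjusted p = 0.00921). Cox5a, which lies beside it, had 123 and 115 in 2xSCS70 and 89.7 and 89.9 in 2xSCS2F10, and its adjusted p of 0.0439 lay close to the threshold (log2 0.40, SE 0.12). The call of Cox5a ended with DESeq2, with no filter on low counts and with the replicate number as a block, among others, and it passed in 8 of the 16 alternatives. Cox6b1, which faces the intermembrane space, had 157 and 173 in 2xSCS70 and 115 and 132 in 2xSCS2F10 and did not pass (log2 0.41, SE 0.13, adjusted p = 0.0604). Cox7a2l, a factor in the joining of complexes III and IV, had 61.4 and 60.8 in 2xSCS70 and 79.4 and 76.5 in 2xSCS2F10 and did not pass (log2 -0.35, SE 0.11, adjusted p = 0.0577). Cox6c, Cox7a2, Cox7c and Cox8a lay between -0.22 and 0.25 on the log2 scale and did not pass.

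The isoforms of complex IV restricted to particular tissues were near or under the limit of detection in both lines. Cox8c, the testis form of subunit 8, had 0 fragments in all 4 libraries, where 3 fragments would correspond to 0.229 and 0.259 scaled RPKM in 2xSCS70 and 0.324 and 0.331 in 2xSCS2F10. Cox7b2, another testis form, had 1 and 0 fragments in 2xSCS70 and 0 and 0 in 2xSCS2F10, and Cox6b2, also of testis, had 1 and 2 in 2xSCS70 and 0 and 1 in 2xSCS2F10. Cox8b, the form of heart, skeletal muscle and brown fat in mice, had 0 and 1 fragments in 2xSCS70 and 1 and 2 in 2xSCS2F10. Every one of these values was under the floor of 3 fragments, so no difference between lines was detectable at this depth. Cox6a2, the heart and muscle form of subunit 6a, had 10 and 10 fragments in 2xSCS70 and 7 and 4 in 2xSCS2F10, which is 0.551 and 0.624 scaled RPKM in 2xSCS70 and 0.546 and 0.319 in 2xSCS2F10. Its widely expressed counterpart Cox6a1 lay between 225 and 270 in all libraries. The muscle form made up 0.203% and 0.276% of the pair in 2xSCS70 and 0.218% and 0.127% in 2xSCS2F10.

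Cox7a1, the heart, muscle and brown fat form of subunit 7a, was the restricted isoform with the highest level. It had 1.09 and 1.24 scaled RPKM in 2xSCS70 and 0.982 and 2.29 in 2xSCS2F10, from 11 and 11 fragments in 2xSCS70 and 7 and 16 in 2xSCS2F10. The 2xSCS70 values lay between those of the 2xSCS2F10 libraries, and the direction turned without 2xSCS2F10 replicate 2 (log2 -0.49, SE 0.54, adjusted p = 0.492; log2 0.23 without it). Its counterpart Cox7a2 had 78.6 and 92.0 in 2xSCS70 and 78.6 and 64.7 in 2xSCS2F10, so that Cox7a1 made up 1.37% and 1.33% of the pair in 2xSCS70 and 1.24% and 3.42% in 2xSCS2F10. The same held for 2 pairs with symbols outside the rule. Cox4i2, the lung form of subunit 4, had 1 and 0 fragments in 2xSCS70 and 2 and 1 in 2xSCS2F10, while Cox4i1 had 233 and 215 scaled RPKM in 2xSCS70 and 247 and 241 in 2xSCS2F10 (adjusted p = 0.405). Ndufa4l2, a hypoxia-responsive relative of Ndufa4, had 16 and 6 fragments in 2xSCS70 and 6 and 7 in 2xSCS2F10, and the sign of its difference turned without 2xSCS70 replicate 1 (log2 0.30, and -0.45 without it).

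Beside these isoforms, several defining markers of the tissues that use them were at 0. Of 14 striated muscle markers, Myf5, Myh1, Myh6, Myod1 and Myog had 0 fragments in all 4 libraries and 1 of 4 tested was called, Tnnt2, a troponin of heart and embryonic muscle. Tnnt2 had 101 and 94.9 scaled RPKM in 2xSCS70 and 3.92 and 4.40 in 2xSCS2F10 (log2 4.55, SE 0.15, adjusted p = 0.000347). In 2xSCS70 it made up most of the summed level of that list, which was 104 and 97.9 in 2xSCS70 and 8.90 and 15.0 in 2xSCS2F10. Of 8 brown fat markers, Ucp1, Cidea and Elovl3 had 0 fragments in all libraries, and the summed level was 0.779 and 0.851 in 2xSCS70 and 2.54 and 1.36 in 2xSCS2F10. Prdm16 was higher and Pparg lower in 2xSCS70. Of 9 testis germ cell markers, Dazl and Tnp1 had 0 fragments in all libraries, and Ddx4, a germ cell helicase, was lower, at 0.0509 and 0.0144 in 2xSCS70 and 11.3 and 2.78 in 2xSCS2F10. The call of Ddx4 ended without 2xSCS70 replicate 1 and without replicate 2 (edgeR adjusted p = 0.0715 and 0.0779).

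**Figure D3:**
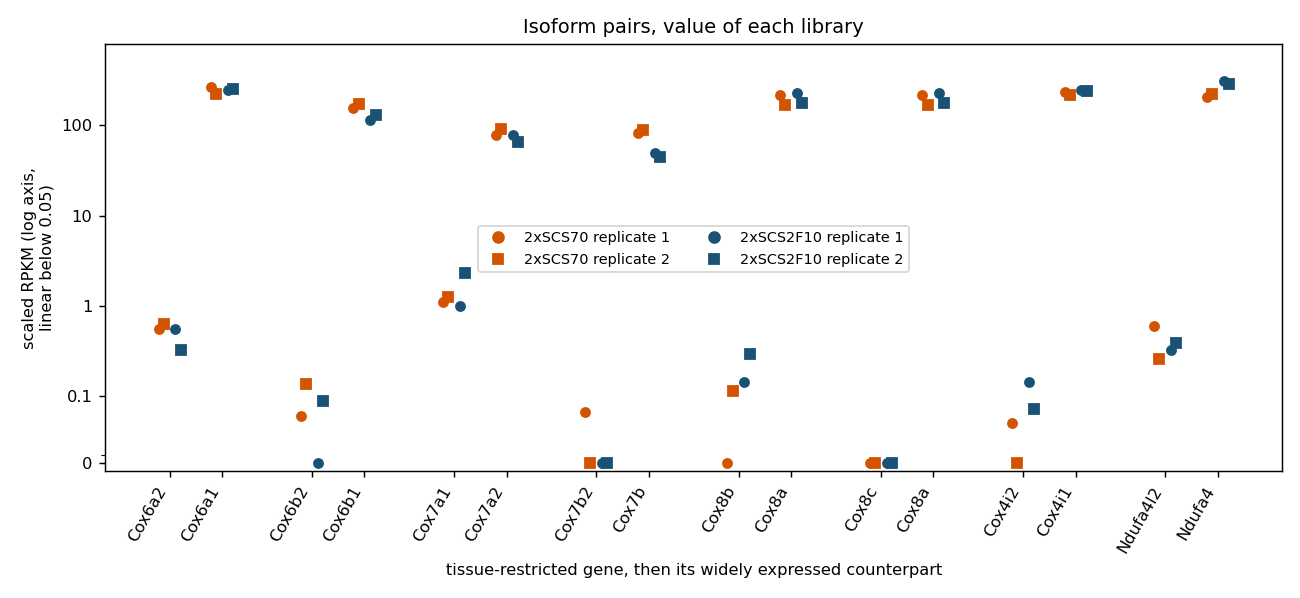
Level of each tissue-restricted isoform and of its widely expressed counterpart in each library (scaled RPKM, log axis with a linear stretch below 0.05), with 2xSCS70 left of 2xSCS2F10. Counterparts lie between 44.8 and 312, and the restricted forms at or below 2.29, that of Cox7a1 in 2xSCS2F10 replicate 2.

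Complex V, ATP synthase, was the most abundant group, at a summed level of 2510 ± 0.911 scaled RPKM in 2xSCS70 and 2553 ± 223 in 2xSCS2F10. In the test on all 4 libraries 14 of its 17 genes did not pass, and 17.6% passed, against 40.6% of all tested genes in that test. Without 2xSCS2F10 replicate 1, 4 were higher and 2 lower, and without its replicate 2, 2 were higher and 8 lower. All 17 changed by less than 0.5 on the log2 scale, with a median of -0.06 (0.02 under upper quartile scaling, 0.19 on log2 RPKM values). Atp5b, the catalytic beta subunit, had the highest level of all 82 genes, at 523 and 493 in 2xSCS70 and 534 and 440 in 2xSCS2F10, and the lines overlapped (log2 0.06, SE 0.16, adjusted p = 0.779). Atp5e, the epsilon subunit of the central stalk, was lower in 2xSCS70, at 102 and 104 against 147 and 132 in 2xSCS2F10 (log2 -0.43, SE 0.12, adjusted p = 0.0457). It lay close to the threshold and passed in 7 of the 16 alternatives. Atp5j2, the f subunit of the membrane part, was higher, at 187 and 203 in 2xSCS70 and 137 and 148 in 2xSCS2F10 (log2 0.45, SE 0.12, adjusted p = 0.0381). The other 14 genes had log2 fold changes between -0.33 (Atp5f1, the b subunit of the outer stalk) and 0.48 (Atp5sl). Atp5s and Atp5sl, which are no core subunits, were the least abundant: Atp5sl had 5.73 and 4.95 in 2xSCS70 and 3.91 and 3.76 in 2xSCS2F10 (adjusted p = 0.0817), and Atp5s had 3.49 and 3.21 in 2xSCS70 and 3.53 and 2.58 in 2xSCS2F10 (adjusted p = 0.693).

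The c-ring of ATP synthase is built from 1 protein that is made from 3 genes with different targeting sequences, and 1 of the 3 passed in the test on all 4 libraries. Atp5g1 was 1.41-fold lower in 2xSCS70, at 78.7 and 69.5 scaled RPKM against 108 and 101 in 2xSCS2F10 (log2 -0.49, SE 0.13, adjusted p = 0.0341). Atp5g2 had 176 and 181 in 2xSCS70 and 214 and 166 in 2xSCS2F10, and Atp5g3, the most abundant of the 3, had 277 and 257 in 2xSCS70 and 321 and 237 in 2xSCS2F10. For both, the 2xSCS70 values lay between those of the 2xSCS2F10 libraries (adjusted p = 0.665 and 0.798). Without 2xSCS2F10 replicate 2 all 3 were called lower (Atp5g2 at an adjusted p of 0.0274 and Atp5g3 at 0.0222). The call of Atp5g1 passed in 8 of the 16 alternatives and ended with no filter (adjusted p = 0.0508), under upper quartile scaling (0.0562) and on log2(RPKM + 1) (0.395), among others. The summed level of the 3 genes was 520 ± 16.9 in 2xSCS70 and 573 ± 98.5 in 2xSCS2F10. The difference between Atp5g1 and the other genes was not tested, and reads of such related genes can be shared between rows, depending on how multiply aligned reads were counted, which no source used here gives.

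Of the 82 genes, 3 lie on chromosome X, Cox7b, Ndufb11 and Ndufa1, and all 3 were higher in 2xSCS70. Over all 458 tested genes of chromosome X, 50.0% were higher and 14.6% lower, with a median log2 fold change of 0.70, against 0.02 for all tested genes. The changes of the 3 genes, between 0.55 and 0.85, lay near that median. Without 2xSCS70 replicate 1 or without replicate 2, 15 genes of the chromosome were called higher and 24 lower, and 0 of the 3. The part of the chromosome in their differences was not tested.

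**Figure D4:**
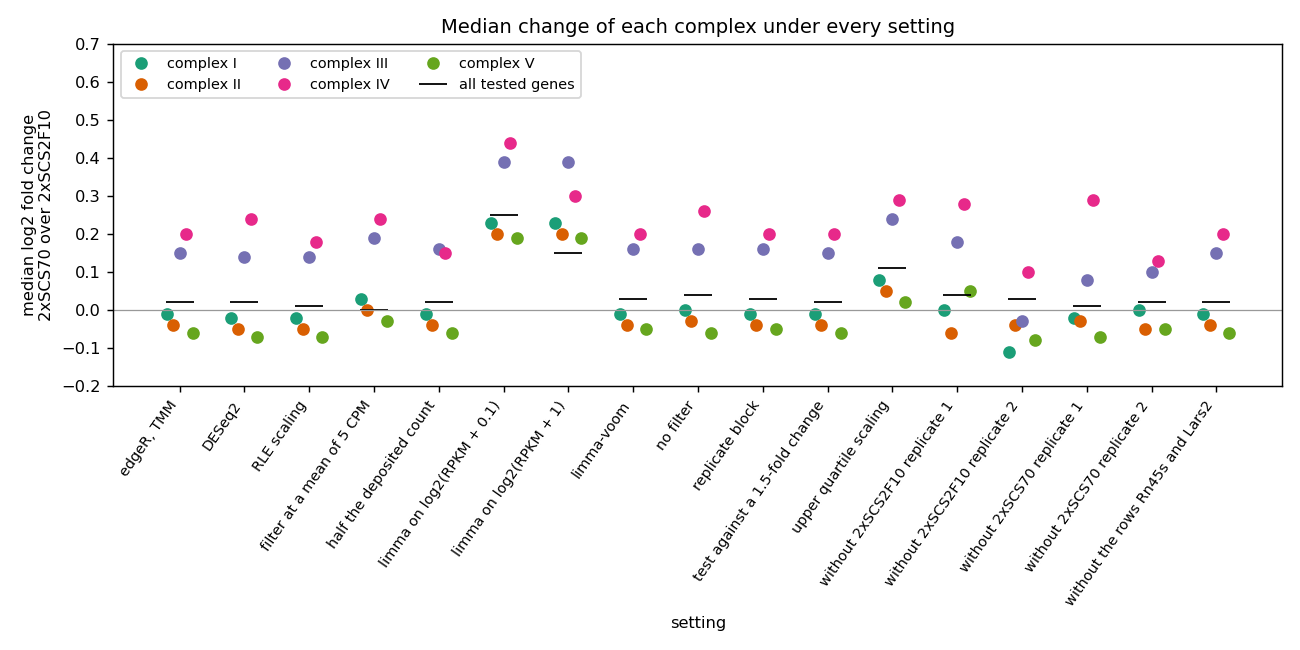
Median log2 fold change (2xSCS70 over 2xSCS2F10) of the tested genes of each complex in the analysis on all 4 libraries with edgeR and TMM scaling (leftmost) and in 16 alternative settings; black dashes mark all tested genes. Complex IV, with its genes taken by symbol, lies above 0 in every setting shown, between 0.10 and 0.44, while complexes I, II and V cross 0 with the scaling.

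Other mitochondrial genes were read from lists of the same pathway. Of 5 tested subunits and carriers of electrons with symbols outside the rule, 0 passed in the edgeR test, with 1 at an unadjusted p under 0.05. That gene was Usmg5, a protein associated with ATP synthase, at 128 and 156 scaled RPKM in 2xSCS70 and 190.0 and 204 in 2xSCS2F10 (log2 -0.47, SE 0.15, adjusted p = 0.0552), which passed as lower with DESeq2 and with limma-voom. Ndufab1, the acyl carrier protein of complex I, had 40.9 and 40.2 scaled RPKM in 2xSCS70 and 36.9 and 37.3 in 2xSCS2F10 (adjusted p = 0.423), and Cycs, cytochrome c, had 36.2 and 39.8 in 2xSCS70 and 47.3 and 40.9 in 2xSCS2F10 (adjusted p = 0.243). Enzymes of the tricarboxylic acid cycle supply the chain with NADH and succinate. In the edgeR test on all 4 libraries 7 of 13 were higher in 2xSCS70 and 0 were lower. That is 53.8% and 0.0%, against 18.8% and 21.8% of all tested genes, and the median log2 fold change was 0.46. Idh3b was called lower with RLE scaling and with limma-voom, 2 genes were lower without 2xSCS2F10 replicate 1, and 3 were lower without its replicate 2. Fh1, fumarase, had 55.9 and 54.6 scaled RPKM in 2xSCS70 and 33.4 and 30.1 in 2xSCS2F10 (log2 0.80, SE 0.12, adjusted p = 0.00816). Dlst, a subunit of the 2-oxoglutarate dehydrogenase complex, had 54.4 and 54.5 in 2xSCS70 and 36.2 and 32.9 in 2xSCS2F10 (log2 0.66, adjusted p = 0.0119). Mdh2, mitochondrial malate dehydrogenase, had 234 and 209 in 2xSCS70 and 164 and 158 in 2xSCS2F10 (log2 0.46, adjusted p = 0.0358). Suclg2, Dld, Ogdh and Idh3g also passed as higher. Of these 13 genes 0 passed the test against a 1.5-fold change, and 3 passed with the replicate number as a block. With either 2xSCS70 library left out, 0 genes passed in this list and in the lists of carriers, assembly factors and regulators below.

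Carriers and channels that connect the chain with the cell differed in both directions. The adenine nucleotide carriers exchange ADP for ATP across the inner membrane. Slc25a5, on chromosome X, had 296 and 290 scaled RPKM in 2xSCS70 and 143 and 97.7 in 2xSCS2F10 (log2 1.29, SE 0.21, adjusted p = 0.00948), whereas Slc25a4, the form of heart and muscle, had 247 and 237 in 2xSCS70 and 469 and 396 in 2xSCS2F10 (log2 -0.84, SE 0.14, adjusted p = 0.0102). The more abundant of the 2 forms was thus Slc25a5 in 2xSCS70 and Slc25a4 in 2xSCS2F10. Nnt, the transhydrogenase of which C57BL/6J mice are known to lack several exons, had 30.7 and 31.5 in 2xSCS70 and 17.2 and 15.5 in 2xSCS2F10 (log2 0.92, SE 0.12, adjusted p = 0.00516). Counts were per gene, so exons were not compared, and the part of strain in this difference was not tested. Vdac1, a channel of the outer membrane, had 115 and 118 in 2xSCS70 and 214 and 193 in 2xSCS2F10 (log2 -0.81, adjusted p = 0.00781), and Vdac2 and the carrier Ucp2 were also lower. In all, 2 of 8 tested genes of this list were higher and 4 lower, with a median of -0.39. These shares were 25.0% and 50.0%, against 18.8% and 21.8% of all tested genes.

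Assembly factors mostly did not pass. The share that passed was 22.2% for complex I and 9.52% for complexes II to V, against 40.6% of all tested genes. Of 9 tested factors of complex I, Ndufaf3 was higher, at 9.52 and 9.05 scaled RPKM in 2xSCS70 and 2.98 and 3.54 in 2xSCS2F10 (log2 1.51, SE 0.21, adjusted p = 0.00638). Foxred1 was lower, at 8.90 and 9.10 in 2xSCS70 and 13.6 and 13.7 in 2xSCS2F10 (log2 -0.60, adjusted p = 0.0185). Of 21 tested factors of complexes II to V, Bcs1l, which inserts the Rieske protein into complex III, was higher (log2 0.55, adjusted p = 0.0303) and Sdhaf2, which adds the flavin of Sdha, was lower (log2 -0.62, adjusted p = 0.0169). For 13 of the 35 listed factors of complexes II to V and 4 of the 13 of complex I no row carried the listed symbol. Without 2xSCS2F10 replicate 1, 4 factors of complex I were higher and 1 lower, and 3 factors of complexes II to V were higher and 5 lower. Without its replicate 2 these counts were 5 and 1 for complex I and 2 and 7 for complexes II to V.

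Of the regulators of mitochondrial genes, 3 of 16 tested were higher and 2 lower (8 and 3 without 2xSCS2F10 replicate 1, 5 and 2 without its replicate 2). In the test on all 4 libraries 31.2% of these regulators passed, against 40.6% of all tested genes. Sirt1, a deacetylase, had 5.48 and 6.57 scaled RPKM in 2xSCS70 and 2.68 and 2.70 in 2xSCS2F10 (log2 1.16, SE 0.16, adjusted p = 0.00652), and Polg, the mitochondrial DNA polymerase, and Yy1 were also higher. Esrra, which encodes ERRα, had 7.07 and 5.74 in 2xSCS70 and 14.0 and 12.8 in 2xSCS2F10 (log2 -1.06, SE 0.17, adjusted p = 0.00865), and Tfb1m was also lower. Gabpa, at 23.4 and 25.1 in 2xSCS70 and 25.0 and 22.7 in 2xSCS2F10 (adjusted p = 0.899), and Nrf1, at 7.89 and 8.09 in 2xSCS70 and 6.61 and 5.82 in 2xSCS2F10 (adjusted p = 0.0817), did not pass. The coactivator Ppargc1a was at or below 0.154 in every library, and Esrrb and Esrrg had 0 fragments in all 4.

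**Figure D5:**
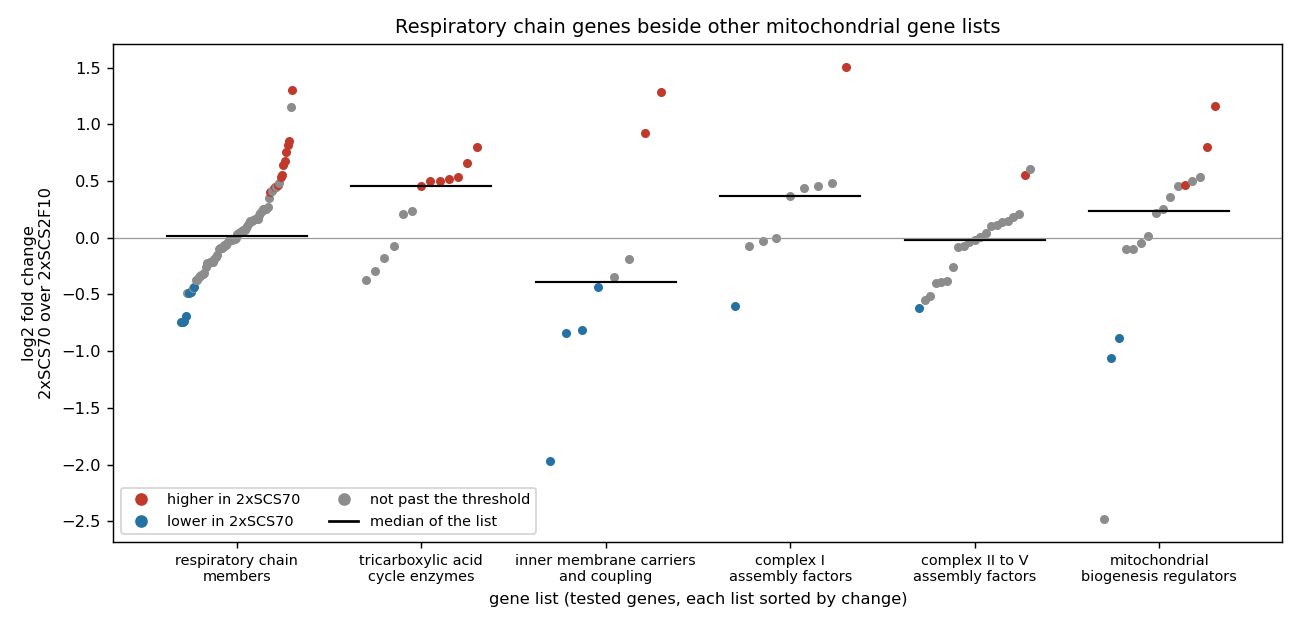
Log2 fold change (2xSCS70 over 2xSCS2F10) of each tested gene of the respiratory chain and of 5 other mitochondrial lists, sorted within each list, with a black line at the list's median. The median is 0.02 for the respiratory chain, 0.46 for the tricarboxylic acid cycle and -0.39 for carriers and coupling; colored points passed the test.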

How the data were processed

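Polyadenylated RNA of 2 mouse lines was sequenced, with 2 libraries per line, grouped by line from the labels. The labels' protocols name Qiagen miRNeasy for extraction and an Illumina TruSeq mRNA kit for the libraries. Whether the libraries marked strand was not tested. TopHat2 2.0.6, Bowtie and HTSeq on mm10 are named in the submitters' processing notes; the annotation and the treatment of multiply aligned reads are not given in the sources used here. Raw counts per gene were deposited, per the file headers; all were even, so 1 fragment was taken as 2 counts. The authors also deposited RPKM, per the file headers, which divide by a fixed number of reads per library.

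All 14496 genes kept by filterByExpr were fitted with edgeR 4.0.16 (R 4.3.3) (quasi-likelihood test) on these counts, with TMM factors of 1.126 and 1.088 for 2xSCS70 and 0.9658 and 0.8451 for 2xSCS2F10 and Benjamini-Hochberg adjustment. Each SE was taken as the size of the log2 fold change over the root of the F statistic. Counting intervals and floors (3 fragments per library) cover counting error only. The alternatives used DESeq2 1.42.0 and limma 3.58.1. Genes and lists were chosen with earlier results of these data known, and the arms of complex I were grouped after values were seen. Genes named are the isoform sets, the 3 called genes of smallest adjusted p per complex and direction, the 2 most abundant per complex, and up to 3 called genes per other list; others named were chosen after their values were seen. Of the genes this rule takes, 1 is not reported here. Promoters came from RefSeq (GRCm38.p6). In the tables of replicate 1, 25 gene names turned into dates were restored from the other tables.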

Additional observations from a re-analysis of the deposited data

How the results depend on the processing

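No respiratory chain gene that passed changed its direction in any alternative. DESeq2, RLE scaling, limma-voom, both filters on low counts, fragments in place of counts and leaving out the rows Rn45s and Lars2 kept 10 or 11 higher and 6 to 8 lower genes. The higher genes were 6 and the lower genes 4 with the replicate number as a block, and they were 1 and 0 against a minimum change of 1.5-fold, where 3094 of all genes passed. The lower genes were 4 under upper quartile scaling and 0 on log2(RPKM + 1) and on log2(RPKM + 0.1). Without 1 of the libraries, its remaining partner was assumed to spread like the other line, which gave the lone library no check of its own. The higher genes then ranged between 0 and 26, the lower genes between 0 and 25, and all genes called between 764 and 9673. The labels do not say whether the replicate numbers mark a shared batch. The differences between replicates correlated at 0.0539 between lines over 14496 genes. The ribosomal RNA row Rn45s and the row of the gene Lars2 were higher in replicate 2 of both lines. Their median difference was 1.48 on the log2 scale in 2xSCS70 and 1.54 in 2xSCS2F10. With the block 10 of the 19 calls remained, and 0 of the 19 changed direction.

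Under upper quartile scaling, log2(RPKM + 0.1) and log2(RPKM + 1), in this order, the median was 0.10, 0.26 and 0.23 for all respiratory chain genes, 0.08, 0.23 and 0.23 for complex I, 0.05, 0.20 and 0.20 for complex II, 0.02, 0.19 and 0.19 for complex V, and 0.29, 0.44 and 0.30 for complex IV. For complex III it was 0.39 on both RPKM scales. With Ndufa4 and Cox4i1 counted in complex IV, added after the data were seen, that median was 0.06. With a filter at a mean of 5 CPM it was 0.03 (complex I), 0.00 (complex II) and 0.24 (complex IV). For complex IV it was also 0.24 with DESeq2, 0.26 with no filter and 0.15 on fragments. With 1 library left out, the median ranged from -0.06 to 0.08 for all respiratory chain genes, -0.11 to 0.00 for complex I, -0.06 to -0.03 for complex II, -0.03 to 0.18 for complex III, 0.10 to 0.29 for complex IV and -0.08 to 0.05 for complex V.

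Signs turned only for genes that had not passed. On log2(RPKM + 1) and log2(RPKM + 0.1) they turned for Cox4i1 (0.11), Cox6a1 (0.21), Cox8a (0.15), Atp5g2 (0.16), Atp5g3 (0.19) and Sdha (0.05). Under upper quartile scaling they turned for Cox6a1 (0.07), Cox8a (0.00) and Atp5g3 (0.02). Cox6a1 turned with the 5 CPM filter (0.02) and Uqcrb with DESeq2 and RLE (-0.01). With 1 library left out, values ranged from -0.99 to 0.23 for Cox7a1, -0.45 to 0.78 for Ndufa4l2, -0.16 to 0.11 for Cox6a1, -0.28 to 0.09 for Cox8a, -0.27 to 0.09 for Atp5g2, -0.27 to 0.16 for Atp5g3, -0.01 to 0.13 for Sdhc, -0.13 to 0.13 for Uqcrb and -0.08 to 0.19 for Atp5b. Under upper quartile scaling, log2(RPKM + 0.1) and log2(RPKM + 1), the median of all tested genes was 0.11, 0.25 and 0.15, against 0.02 with TMM scaling. The cause of the turned signs was not tested. Over the genes named and the 16 alternatives, 793 values kept direction and side of the threshold, 134 lost the call, 13 gained one and 29 changed sign.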
